A study of Mus musculus with 34 samples.

Results

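The comparison described here is fluoxetine against vehicle in the libraries labelled hippocampus. They are 13 of the 34 libraries of the series, and they were chosen by their labels and by the columns of 1 table of read counts. The study used wild-type mice and TRAP, translating ribosome affinity purification, in which ribosomes with a tag are captured together with the mRNA bound to them. Its other libraries came from granule cells and mossy cells, the principal excitatory neurons of the dentate gyrus and of its hilus. There were 6 hippocampus libraries from wild-type mice given vehicle and 7 from wild-type mice given fluoxetine. The labels name no further allele or agent. They give no dose, duration, age or sex, and leave unstated which cells of the hippocampus carried the tag and whether bound or input RNA was sequenced. Replicates are not stated to be different animals, and p-values thus reflect only how these libraries vary, which may be technical.

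Fluoxetine is a selective serotonin reuptake inhibitor: it blocks the serotonin transporter, which sits on axons that reach the hippocampus from the raphe nuclei. The hippocampus itself holds the receptors, in granule cells, mossy cells, pyramidal cells of the CA fields, interneurons and glia. In any cell, mRNAs of membrane and secreted proteins are translated on ribosomes docked at the endoplasmic reticulum (ER). Those of cytosolic, nuclear and most mitochondrial proteins are translated on free ribosomes.

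Each library held 23.9 to 45.0 M counts over 17600 to 18210 genes with a count, and the ribosomal RNA precursor Rn45s took 11.5% to 15.3% of them. No member of the 12 cell type marker lists was at 0 in every library. The hippocampal neuron genes Prox1, Calb1, Slc17a7 and Gad1 were all detected, at vehicle medians of 206, 142, 579 and 96.8 counts per 1 M counts of the library (CPM). Some libraries stood apart. Markers of choroid plexus and ependyma, the ventricle lining, summed to 4002, 5877 and 1627 CPM in vehicle libraries 1, 2 and 4, against 42.9 to 48.8 CPM in the other vehicle libraries and 36.6 to 139 CPM with fluoxetine. Microglia markers summed to 475 CPM in fluoxetine library 4 and 188 CPM in fluoxetine library 2, and astrocyte markers to 7874 and 3496 CPM. Each count over a gene list is therefore followed by the counts without these 5 libraries, a choice made after the data were seen.

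**Figure D1:**
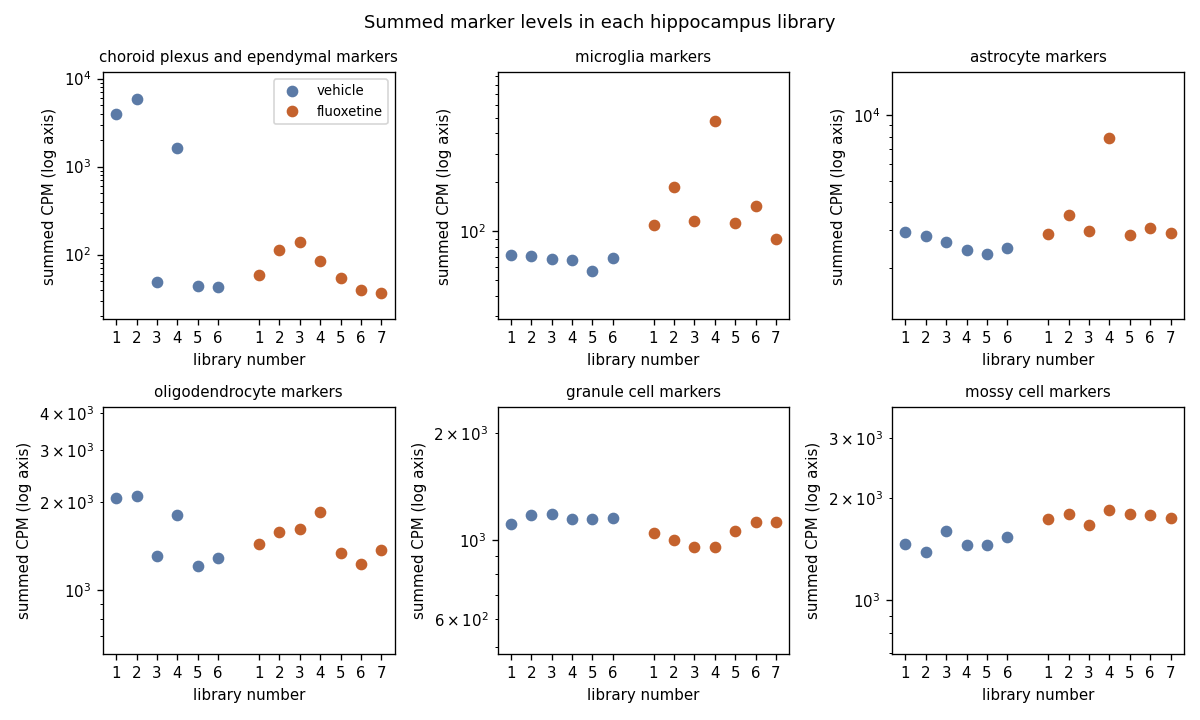
Summed level of 6 marker lists (y axis, CPM on a log axis) in each vehicle and fluoxetine library (x axis, library number, 1 point per library). Choroid plexus and ependymal markers reach 4002, 5877 and 1627 CPM in vehicle libraries 1, 2 and 4, and microglia markers reach 475 CPM in fluoxetine library 4.

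With fluoxetine, RNAs of ion channels, receptors, adhesion and guidance molecules, peptide-processing and lysosomal enzymes were higher. RNAs of oxidative phosphorylation, the proteasome, cytosolic chaperones and translation factors were lower. Most single changes were small. Of 15596 genes tested, 2411 (15.5%) were higher and 2294 (14.7%) were lower at an adjusted p under 0.05 by edgeR's quasi-likelihood test, and the median log2 fold change of all genes was 0.001. Log2 changes below are fluoxetine over vehicle with the standard error of that fit, and adjusted p-values are Benjamini-Hochberg values over all genes tested. Without the 5 libraries, 1260 genes (7.97%) were higher and 980 (6.2%) lower, 1934 of these calls were shared in sign with the comparison of all 13 libraries, and 99.4% of the calls from all libraries that could be fitted kept their sign. Leaving out vehicle libraries 1, 2 and 4 alone gave 632 higher (3.97%) and 399 lower (2.51%), and leaving out fluoxetine libraries 2 and 4 alone gave 1919 (12.3%) and 1855 (11.9%). With a correction for transcript length and GC content the split moved to 1706 higher (10.9%) and 3025 lower (19.4%).

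Among genes whose average log2 CPM was 3 or more and that showed no overlap between the groups, those with the largest rises included the noncoding RNAs Meg3 and Snhg11 and the large, little-studied protein gene Trank1. Across all genes, 4.51% stood above and 4.73% below every vehicle library in all 7 fluoxetine libraries. Meg3, an imprinted, maternally expressed noncoding RNA (GRCm38 chromosome 12, 109541001 to 109571726), ran from 904 to 1443 CPM (median 1111) with vehicle and from 1633 to 3176 CPM (median 2736) with fluoxetine. Every fluoxetine library stood above every vehicle library, a log2 change of 1.16 ± 0.13 (adjusted p = 0.000146). Snhg11, a neuronal small nucleolar RNA host gene (chromosome 2, 158375638 to 158386145), had vehicle levels of 269 to 528 CPM (median 383) and fluoxetine levels of 601 to 1293 CPM (median 972), again without overlap, a log2 change of 1.25 ± 0.17 (adjusted p = 0.000343). Both of these and Trank1 changed as much or nearly as much without the 5 libraries: the log2 changes there were 1.22 ± 0.14, 1.28 ± 0.15 and 1.02 ± 0.12, the last against 1.20 ± 0.18 with all libraries.

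The other large rises were in genes of glia. Csf1r, the receptor microglia need to survive, stood at 4.49 to 6.21 CPM in vehicle libraries (median 5.86) and at 7.54 to 50.4 CPM with fluoxetine (median 11.7), with no overlap, a log2 change of 1.59 ± 0.35 (adjusted p = 0.00378). P2ry12, a purine receptor of resting microglia, changed by 1.32 ± 0.27 and C1qb, a chain of complement C1q, by 1.45 ± 0.34. Laptm5 and Pla2g7 followed, by 1.31 ± 0.31 and 1.17 ± 0.31, as did the astrocyte membrane proteins Mlc1 and Gpr37l1, by 1.09 ± 0.30 and 1.06 ± 0.28. These 7 changes were smaller without the 5 libraries, from 0.59 ± 0.10 in Mlc1 to 0.99 ± 0.15 in P2ry12, and all of them passed there.

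Among genes at the same average level and without overlap between the groups, the falls were less than 1 log2 unit. Id1, an inhibitor of DNA-binding transcription factors (chromosome 2, 152736251 to 152737410), ran from 8.77 to 18.3 CPM (median 12.2) with vehicle and from 6.69 to 8.66 CPM (median 7.82) with fluoxetine, a log2 change of −0.68 ± 0.15 (adjusted p = 0.00378). Cul4b, the scaffold of a ubiquitin ligase (chromosome X, 38533274 to 38576196), had vehicle levels of 49.1 to 66.0 CPM (median 60.2) and fluoxetine levels of 35.7 to 47.8 CPM (median 38.9). All 7 fluoxetine libraries of both genes stood below every vehicle library, and Cul4b changed by −0.55 ± 0.08 (adjusted p = 0.000619). Tpr, a filament protein of the nuclear pore basket (chromosome 1, 150392838 to 150449935), stood at 231 to 309.6 CPM in vehicle libraries (median 243) and at 155 to 215 CPM with fluoxetine (median 179), a log2 change of −0.49 ± 0.08 (adjusted p = 0.00113). The others were Mrps6 of the mitochondrial ribosome (−0.52 ± 0.09), Thyn1 (−0.51 ± 0.11), the proteasome assembly factor Psmd10 (−0.51 ± 0.11), the spliceosomal cyclophilin Ppih (−0.48 ± 0.10), the small heat shock protein gene Cryab (−0.48 ± 0.10), Cmss1 (−0.48 ± 0.10), the splicing regulator Rbm11 (−0.47 ± 0.10), the nucleotide synthesis enzyme Prps2 (−0.47 ± 0.11) and Etfa, which passes electrons from fatty acid oxidation (−0.47 ± 0.10). When the 5 libraries were left out, Id1, Cryab, Cmss1, Prps2 and Etfa kept their sign but no longer passed, at adjusted p-values of 0.115, 0.0526, 0.0906, 0.169 and 0.0778.

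**Figure D2:**
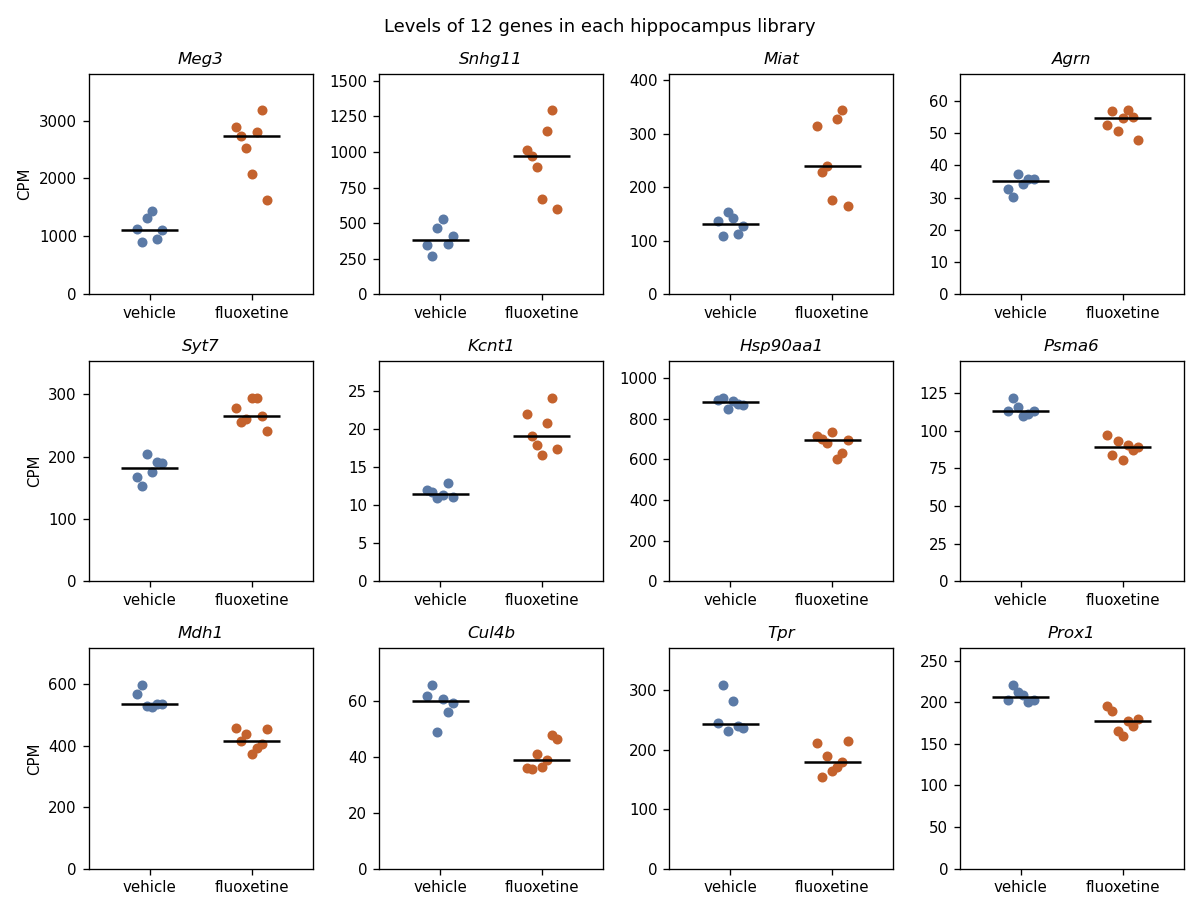
Level (y axis, CPM) of 12 genes in each of 6 vehicle and 7 fluoxetine libraries (x axis), 1 point per library, with a line at the group median. In all 12 genes no fluoxetine library overlaps a vehicle library, with Meg3 running from 904 to 1443 CPM in vehicle and from 1633 to 3176 CPM with fluoxetine.

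Ion channels formed one of the groups that rose. Among voltage-gated channels for sodium and calcium, 19 of 29 genes rose and 2 fell, with a median of 0.30 (15 and 0 without the 5 libraries). The P/Q-type and N-type calcium channels Cacna1a and Cacna1b, which open at the presynaptic terminal to trigger release, changed by 0.59 ± 0.07 and 0.57 ± 0.08. The L-type channel Cacna1d ran from 21.0 to 29.4 CPM (median 25.7) with vehicle and from 34.3 to 44.8 CPM (median 40.9) with fluoxetine, without overlap, a log2 change of 0.65 ± 0.09 (adjusted p = 0.000343). Of 48 potassium channel genes 22 rose and 2 fell (median 0.22), and 9 rose and 1 fell without the 5 libraries. The sodium-activated channel gene Kcnt1 (chromosome 2, 25863734 to 25918273) had vehicle levels of 10.9 to 12.9 CPM (median 11.5) and fluoxetine levels of 16.6 to 24.1 CPM (median 19.0), a log2 change of 0.76 ± 0.09 (adjusted p = 0.000169). Kcnn2, a calcium-activated channel of the afterhyperpolarisation, changed by 0.56 ± 0.09. Both genes stood above every vehicle library in all 7 fluoxetine libraries.

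Receptors for glutamate and GABA moved the same way. Of 17 ionotropic glutamate receptor genes 12 rose and 0 fell (median 0.31; 8 rose without the 5 libraries). Grin1, the obligatory NMDA receptor subunit, stood at 128 to 162 CPM in vehicle libraries (median 147) and at 169 to 228 CPM with fluoxetine (median 202), a log2 change of 0.45 ± 0.07 (adjusted p = 0.000811). The groups did not overlap, and neither did they in the kainate receptor subunit Grik5 (0.52 ± 0.08) and the AMPA receptor subunit Gria3 (0.31 ± 0.05). Of 7 metabotropic glutamate receptor genes 5 rose, among them the presynaptic receptors Grm7 (0.42 ± 0.07) and Grm2 (0.50 ± 0.11). That count was 1 without the 5 libraries. Of 14 GABA receptor genes 6 rose and 0 fell (3 and 0 without the 5 libraries). The pair that forms the GABA-B receptor, Gabbr1 and Gabbr2, changed by 0.31 ± 0.07 and 0.41 ± 0.08.

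Cell surface and matrix genes rose as well. Synaptic adhesion genes gave 28 higher and 0 lower of 39 (median 0.30; 19 higher without the 5 libraries). Lphn2, a latrophilin that binds teneurins across the synapse, ran from 25.5 to 34.1 CPM (median 29.4) with vehicle and from 41.5 to 46.0 CPM (median 44.7) with fluoxetine, a log2 change of 0.56 ± 0.07 (adjusted p = 0.000185). The receptor phosphatase Ptprs (0.52 ± 0.08) and the adhesion receptor Bai2 (0.55 ± 0.08) were the other leading members, all without overlap. Of 48 axon guidance genes 27 rose and 0 fell (median 0.36; 17 rose without the 5 libraries), led by the semaphorin Sema4f (0.61 ± 0.08), the secreted repellent Slit1 (0.55 ± 0.08) and the netrin receptor Unc5a (0.61 ± 0.10). Of 33 cadherins and protocadherins 16 rose and 0 fell (10 and 0 without the 5 libraries). Celsr3, a large atypical cadherin that guides axon tracts, had vehicle levels of 13.5 to 27.5 CPM (median 21.9) and fluoxetine levels of 30.5 to 50.2 CPM (median 41.3), a log2 change of 0.98 ± 0.15 (adjusted p = 0.000615). Every fluoxetine library lay above every vehicle library.

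Collagens, laminins and integrins, with related matrix genes, had the highest median of the neuronal and matrix lists, 0.49, with 17 of 39 higher and 0 lower (9 higher without the 5 libraries). Agrn encodes agrin, a proteoglycan that clusters receptors at synapses (chromosome 4, 156165290 to 156197488). It stood at 30.1 to 37.4 CPM in vehicle libraries (median 35.0) and at 47.9 to 57.1 CPM with fluoxetine (median 54.7), a log2 change of 0.64 ± 0.06 (adjusted p = 0.000116). Fn1, the matrix glycoprotein fibronectin, changed by 0.68 ± 0.11, and Col4a1, a basement membrane collagen made largely by vessels, by 0.92 ± 0.18, each above every vehicle library in 6 of 7 fluoxetine libraries. Summed markers of endothelial and mural cells overlapped between the groups, at 73.5 to 121 CPM in vehicle and 75.7 to 171 CPM in fluoxetine libraries, with 1 of 16 markers higher and 1 lower (1 and 1 without the 5 libraries). Their part in these changes was not tested.

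Within some lists the members that sit in or on the membrane and the cytosolic members differed in their counts. This division was made after the values had been seen and is given as a description. It left 5 members in neither class: Unc79 (0.24 ± 0.09) and Unc80 (0.29 ± 0.08), partners of a sodium leak channel, and the phosphodiesterases Pde2a (0.22 ± 0.07), Pde3a (−0.08 ± 0.20) and Pde3b (0.39 ± 0.12). Of these Unc80, Pde2a and Pde3b rose, and Unc79 and Pde3a did not pass. Other lists were not divided. Among them the postsynaptic scaffolds, largely cytosolic proteins, gave 9 higher and 3 lower of 29. Of 23 sodium and calcium channel genes for pore-forming or membrane-attached subunits 18 rose and 0 fell (median 0.39). Of 4 cytosolic beta subunits of calcium channels 0 rose and 2, Cacnb2 and Cacnb4, fell (median −0.07). Of 42 membrane-spanning potassium channel genes 22 rose and 0 fell (median 0.24), and of 6 cytosolic partners 0 rose and 2, Kcnip4 and Kcnab1, fell (median −0.14). Synaptic vesicle genes gave 7 higher and 0 lower of 13 for membrane proteins (median 0.26) and 0 higher and 6 lower of 13 for cytosolic ones (median −0.18). The Rab3 GTPases were counted as cytosolic there. The 8 adenylyl cyclases, which span the membrane and make cyclic AMP, gave 7 higher and 0 lower (median 0.44). The 13 cytosolic phosphodiesterases, which degrade cyclic nucleotides, gave 0 higher and 3 lower (median −0.08). Without the 5 libraries 14, 9, 4 and 6 of the membrane members of the sodium and calcium channels, potassium channels, vesicle and cyclase lists rose and 0 fell, and of their cytosolic members 0 rose and 0, 1, 8 and 2 fell.

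**Figure D3:**
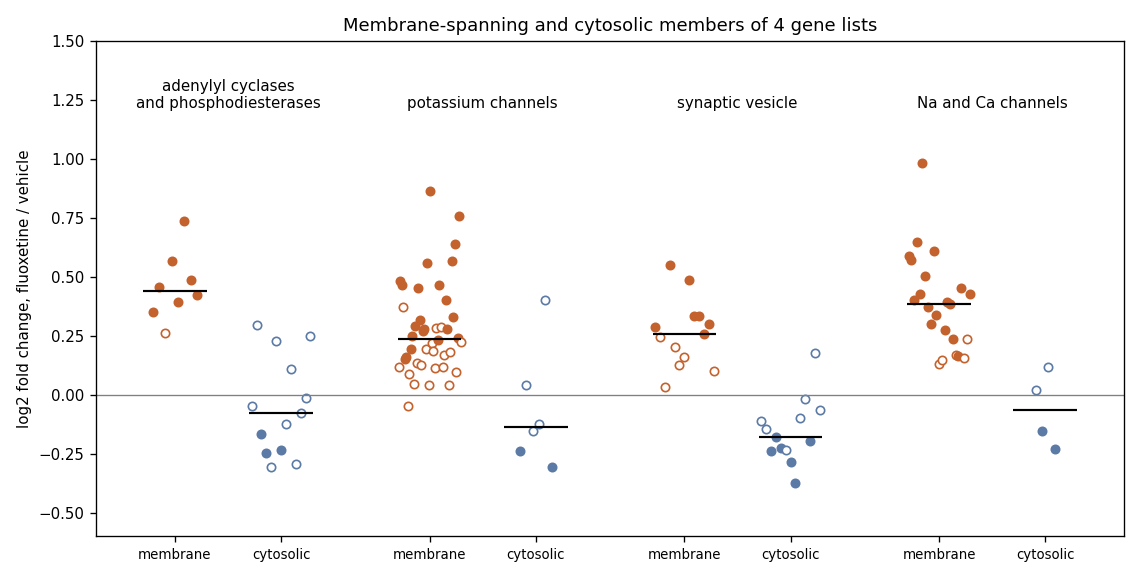
Log2 fold change (y axis, fluoxetine over vehicle) of each member of 4 gene lists, split into membrane and cytosolic members (x axis). Each point is 1 gene, filled where its adjusted p is under 0.05, and lines are medians, and the 5 members in neither class are not drawn. The lists and classes were set after the values had been seen. As sorted, all filled membrane members lie above 0 and all filled cytosolic members below 0, and of the 5 members not drawn Unc80, Pde2a and Pde3b were higher. The split is a description and was not tested.

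Single genes of the synaptic vesicle and of release are described here. Slc17a7, the transporter that loads vesicles with glutamate (chromosome 7, 45163949 to 45176142), ran from 489 to 652 CPM (median 579) with vehicle and from 697 to 1012 CPM (median 809.6) with fluoxetine, a log2 change of 0.55 ± 0.09 (adjusted p = 0.000666). Its levels did not overlap between groups, and the membrane proteins Syp (0.30 ± 0.06) and Syngr1 (0.33 ± 0.07) also stood above vehicle in all 7 fluoxetine libraries. Against them, the small GTPase gene Rab3c (−0.28 ± 0.05) and the cytosolic proton pump subunit Atp6v1b2 (−0.24 ± 0.06) fell. Rab3c and the ATPase Nsf, which takes apart SNARE complexes after fusion (−0.34 ± 0.05), were below vehicle in all 7 fluoxetine libraries. In the active zone list 6 of 30 members rose and 4 fell (median −0.05; 4 and 6 without the 5 libraries), against 15.5% higher and 14.7% lower over all genes. Syt7, a calcium sensor of slow release (chromosome 19, 10389090 to 10453180), had vehicle levels of 153 to 204 CPM (median 182) and fluoxetine levels of 242 to 295 CPM (median 265), a log2 change of 0.58 ± 0.07 (adjusted p = 0.000146). The priming factor Unc13a rose by 0.37 ± 0.07, and the SNARE protein Snap25 fell, with a change of −0.27 ± 0.08. Snap25 no longer passed without the 5 libraries (adjusted p = 0.14).

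Among postsynaptic scaffolds 9 of 29 rose and 3 fell (median 0.08; 4 and 3 without the 5 libraries). The master scaffolds Shank1 (0.73 ± 0.12) and Shank3 (0.65 ± 0.12) stood above vehicle in all 7 fluoxetine libraries, and the membrane-associated kinase homologue Dlg3 (−0.21 ± 0.06) and the gephyrin gene Gphn (−0.17 ± 0.06) fell. Of 15 spectrin and ankyrin genes 6 rose and 1 fell (median 0.15; 4 and 0 without the 5 libraries), with Ank3 at 0.31 ± 0.06 and Sptan1 at −0.24 ± 0.06. With the correction for transcript length and GC content the medians of both lists turned to −0.02 and −0.06, and the counts became 3 higher and 7 lower, and 1 higher and 5 lower. In that setting 10.9% of all genes were higher and 19.4% lower.

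Genes of peptide processing and of the lysosome rose. Of 19 granin and peptide-processing genes 15 rose and 1 fell (median 0.38; 10 rose without the 5 libraries). Ptprn, a protein of the dense-core vesicle membrane, stood at 164 to 207 CPM in vehicle libraries (median 182) and at 217 to 322 CPM with fluoxetine (median 262), a log2 change of 0.54 ± 0.09 (adjusted p = 0.000833). Pam, the enzyme that amidates peptide hormones (0.41 ± 0.07), and Pcsk1n, an inhibitor of prohormone convertase (0.40 ± 0.08), were likewise free of overlap, and Cadps2, a cytosolic factor for dense-core vesicle release, fell (−0.26 ± 0.08). Of 19 neuropeptide genes 7 rose and 0 fell with all libraries and 0 rose without the 5. Penk, the enkephalin precursor, ran from 9.65 to 14.9 CPM (median 12.3) with vehicle and from 12.7 to 76.1 CPM (median 15.9) with fluoxetine, a log2 change of 1.08 ± 0.34 (adjusted p = 0.025), with overlap between the groups. Its change was 0.41 ± 0.14 (adjusted p = 0.062) without the 5 libraries. Sst (0.34 ± 0.08), Vip (0.37 ± 0.10), Vgf (0.39 ± 0.14) and Cck (0.28 ± 0.10) passed with all libraries only, while Npy was at 0.39 ± 0.26 (adjusted p = 0.258) and Pdyn at −0.22 ± 0.27 (adjusted p = 0.574).

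Lysosomal genes gave 15 higher and 0 lower of 22 (median 0.38) and 14 higher without the 5 libraries. Ctsf, a cysteine protease of the lysosome, changed by 0.42 ± 0.09 and stood above vehicle in all 7 fluoxetine libraries. Microglia, which are rich in lysosomal enzymes, had summed marker levels of 57.4 to 71.5 CPM in vehicle and 89.4 to 475 CPM in fluoxetine libraries, and their part in this rise was not tested. Of 22 cholesterol synthesis genes 11 rose and 0 fell (median 0.31; 4 rose and 1 fell without the 5 libraries). Srebf2, the transcription factor of the pathway, changed by 0.45 ± 0.08, and Dhcr7, which acts in its last step, by 0.42 ± 0.10. Of 19 ER chaperones 3 rose, a share near the 15.5% of all genes that were higher. They were Hyou1, Calr and Dnajb11, by 0.40 ± 0.09, 0.23 ± 0.08 and 0.24 ± 0.09. The 2 members that fell, Atf4 (−0.16 ± 0.06) and Ddit3 (−0.26 ± 0.10), are stress transcription factors rather than chaperones. The counts were 1 and 1 without the 5 libraries.

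**Figure D4:**
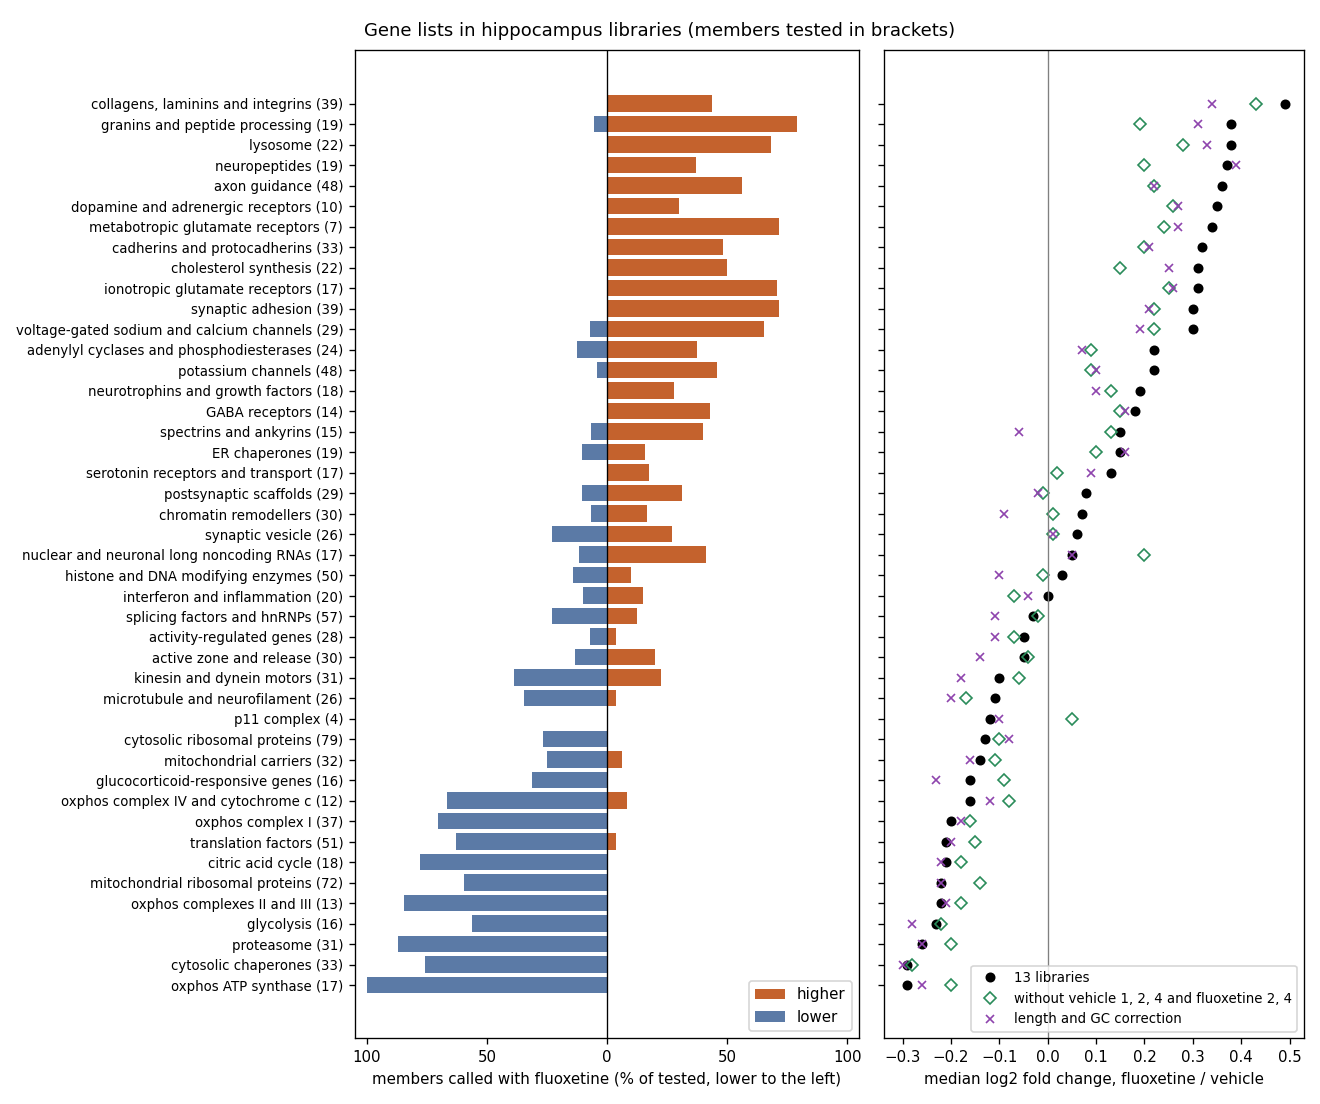
Left, share of tested members of each list called higher or lower (x axis, % of tested members, number tested in brackets). Right, median log2 fold change of each list (x axis) over all 13 libraries, without 5 libraries that stood apart, and with a length and GC correction. The ATP synthase list has all 17 members lower, and the medians of spectrins and ankyrins, postsynaptic scaffolds, chromatin remodellers and histone and DNA modifying enzymes cross 0 with the correction.

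Genes of energy metabolism fell. All 17 nuclear genes of the ATP synthase list were lower (median −0.29), as were 26 of 37 in complex I (median −0.20), 11 of 13 in complexes II and III (median −0.22) and 8 of 12 in complex IV and cytochrome c (median −0.16). The counts were 9, 13, 7 and 3 without the 5 libraries. Atp5e, the epsilon subunit, had vehicle levels of 182 to 208 CPM (median 198) and fluoxetine levels of 132 to 164 CPM (median 159.8), a log2 change of −0.36 ± 0.06 (adjusted p = 0.00101). All fluoxetine libraries lay below all vehicle libraries, as they did for Ndufv1 (−0.27 ± 0.06), which accepts electrons from NADH, for Uqcrc2 (−0.29 ± 0.05), a core protein of complex III, and for the electron carrier Cycs (−0.31 ± 0.06). Cox6a1, a complex IV subunit, went the other way (0.28 ± 0.08) and did not pass without the 5 libraries.

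Of 18 citric acid cycle genes 14 fell and 0 rose (median −0.21; 11 fell without the 5 libraries). Mdh1, the cytosolic malate dehydrogenase that shuttles reducing equivalents (chromosome 11, 21556787 to 21572367), stood at 528 to 599 CPM in vehicle libraries (median 536) and at 372 to 457 CPM with fluoxetine (median 415), a log2 change of −0.39 ± 0.06 (adjusted p = 0.000512). Sucla2 (−0.39 ± 0.06) and Idh3b (−0.35 ± 0.05), which act within the cycle, fell alike. Of 16 glycolytic genes 9 fell and 0 rose (median −0.23), and 10 fell without the 5 libraries. Pgk1, the first ATP-forming enzyme of the pathway, ran from 363 to 418 CPM (median 390.4) with vehicle and from 269 to 338 CPM (median 308) with fluoxetine, a log2 change of −0.37 ± 0.06 (adjusted p = 0.000622). Pgam1 (−0.34 ± 0.05) and Tpi1 (−0.33 ± 0.06) also showed no overlap. Of 32 mitochondrial carriers 2 rose and 8 fell (median −0.14; 2 and 6 without the 5 libraries), with the ADP/ATP carrier Slc25a5 at −0.34 ± 0.07.

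Genes of protein quality control fell as well. Of 31 proteasome genes 27 fell and 0 rose (median −0.26; 20 fell without the 5 libraries). Psma6, an alpha subunit of the core particle (chromosome 12, 55384222 to 55418454), had vehicle levels of 109.9 to 122 CPM (median 113) and fluoxetine levels of 80.6 to 96.9 CPM (median 89.2), a log2 change of −0.36 ± 0.05 (adjusted p = 0.000453). Psma5 (−0.35 ± 0.06) and the beta subunit Psmb4 (−0.35 ± 0.06) also lay below every vehicle library. Of 33 cytosolic and mitochondrial chaperone genes 25 fell and 0 rose (median −0.29; 23 fell without the 5 libraries). Cct4 and Cct5, subunits of the ring that folds actin and tubulin, changed by −0.45 ± 0.06 and −0.34 ± 0.05, and Cct4 stood at 86.8 to 108 CPM in vehicle libraries (median 95.9) and at 61.8 to 77.4 CPM with fluoxetine (median 72.3).

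The heat shock element is the binding motif of heat shock factors. It was searched as GAA, any 2 bases, TTC, any 2 bases, GAA, or as TTC, any 2 bases, GAA, any 2 bases, TTC on the other strand, in RefSeq promoter windows of 250 bases before to 50 bases after each start (GRCm38.p6). Of 26 chaperone genes with a window, 5 (Hspd1, Hspe1, Dnajb6, Hsph1 and Chordc1) held the motif, against 75 of 11371 tested genes with a window (0.66%). Counted by windows, 7 of the 35 of these chaperone genes held it, against 198 of 32851 (0.603%) over all genes. All 5 genes with it were lower with fluoxetine, as were 15 of the 21 without it, so members fell with and without these letters. Stretches of the Hspe1 and Dnajb6 windows are shown as examples with the matched bases in capitals, from chr1:55088018-55088147 and chr5:29735802-29735897, both on the plus strand. Hspe1 has 2 overlapping matches in a window that it shares with Hspd1 on the opposite strand.
Hspe1: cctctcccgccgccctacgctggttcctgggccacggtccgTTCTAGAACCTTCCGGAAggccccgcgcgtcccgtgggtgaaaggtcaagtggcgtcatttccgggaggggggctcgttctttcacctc
Dnajb6: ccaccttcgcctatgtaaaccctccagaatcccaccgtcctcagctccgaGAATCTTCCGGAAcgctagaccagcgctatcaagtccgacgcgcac

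Genes of translation fell too. Of 51 translation factors 32 fell and 2 rose (median −0.21; 16 fell without the 5 libraries). Eif3c, a core subunit of the initiation complex that loads the ribosome, ran from 142 to 162 CPM (median 150.2) with vehicle and from 111 to 137 CPM (median 124) with fluoxetine, a log2 change of −0.30 ± 0.06 (adjusted p = 0.00159). Eif3e fell alike (−0.29 ± 0.05). The 2 members that rose, Eef2k (0.29 ± 0.07), the kinase that inhibits elongation, and Eif4ebp2 (0.32 ± 0.08), which holds back the cap-binding protein, are both repressors of translation. Of 72 mitochondrial ribosomal protein genes 43 fell and 0 rose (median −0.22), and 14 fell without the 5 libraries. Mrpl18 (−0.37 ± 0.07) and Mrps14 (−0.33 ± 0.06) showed no overlap. Of 79 cytosolic ribosomal protein genes 21 fell and 0 rose (median −0.13; 12 fell without the 5 libraries). With the length and GC correction 7 fell, against 19.4% of all genes in that setting, so their calls were no more frequent than those of all genes there. Rps4x (−0.27 ± 0.05) and Rps3a1 (−0.26 ± 0.05) were among the members that fell. Many ribosomal protein genes have near-identical processed copies, and how shared reads were assigned is not given in the sources used here.

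Serotonin receptor genes changed little as a group. Of 17 serotonin receptor and transport genes tested 3 rose and 0 fell (median 0.13), and 0 passed without the 5 libraries. The share that rose was near the 15.5% of all genes that were higher. The transporter gene Slc6a4 was too low to be tested. Htr1a, the inhibitory receptor of hippocampal neurons, had vehicle levels of 33.8 to 44.7 CPM (median 37.3) and fluoxetine levels of 30.2 to 44.8 CPM (median 37.2), so that the groups overlapped almost wholly, a log2 change of 0.00 ± 0.09 (adjusted p = 0.992). Htr5b, another inhibitory receptor gene, was at 0.38 ± 0.17 (adjusted p = 0.0909). The 3 that rose were Htr2b, at 0.715 to 2.27 CPM with fluoxetine and 0.331 to 0.65 CPM with vehicle, Htr4 (0.41 ± 0.15) and Htr5a (0.27 ± 0.09). S100a10, or p11, an adaptor for serotonin receptors, was at −0.09 ± 0.12 (adjusted p = 0.614), and 0 of 4 members of its list rose or fell, as without the 5 libraries. Of 10 dopamine and adrenergic receptor genes 3 rose, among them Adra1b (0.63 ± 0.20) and Adra2c (0.58 ± 0.15), 0 fell, and 0 passed without the 5 libraries. Drd1a and Drd2 were at 0.81 ± 0.30 (adjusted p = 0.0512) and 0.28 ± 0.16 (adjusted p = 0.197).

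Of 18 neurotrophin and growth factor genes 5 rose and 0 fell (4 and 0 without the 5 libraries). Bdnf, the neurotrophin most studied with antidepressants, stood at 34.6 to 37.5 CPM in vehicle libraries (median 35.5) and at 34.7 to 72.5 CPM with fluoxetine (median 39.1). It was above every vehicle library in 6 of 7 fluoxetine libraries, a log2 change of 0.27 ± 0.13 (adjusted p = 0.122), and did not pass. Its receptor gene Ntrk2, which astrocytes also express, changed by 0.58 ± 0.17 (adjusted p = 0.0155), and Fgfr1, Igf1r and Vegfa by 0.52 ± 0.12, 0.31 ± 0.06 and 0.32 ± 0.09. Activity-regulated genes gave 1 higher and 2 lower of 28 (median −0.05; 1 and 1 without the 5 libraries). Npas4, an immediate early transcription factor of active neurons, ran from 1.89 to 4.53 CPM (median 2.83) with vehicle and from 2.42 to 10.1 CPM (median 5.03) with fluoxetine, a log2 change of 0.91 ± 0.28 (adjusted p = 0.0209), with overlap between the groups. Fos was at −0.06 ± 0.23 (adjusted p = 0.871) and Arc at 0.27 ± 0.10 (adjusted p = 0.0566), while Homer1 (−0.15 ± 0.05) and Jun (−0.19 ± 0.07) fell.

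Of 16 glucocorticoid-responsive genes 0 rose and 5 fell (median −0.16; 0 and 2 without the 5 libraries). Nr3c1, the glucocorticoid receptor, fell (−0.27 ± 0.06) and lay below every vehicle library in all 7 fluoxetine libraries. The mineralocorticoid receptor Nr3c2 fell (−0.17 ± 0.05) and did so in 6 of 7. Neither passed without the 5 libraries (adjusted p = 0.0744 and 0.0624). Errfi1, a feedback inhibitor of growth factor receptors, passed with and without them (−0.30 ± 0.07 and −0.26 ± 0.07), and Fkbp5 was at −0.14 ± 0.08 (adjusted p = 0.194).

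Markers of granule cells gave 1 higher and 4 lower of 14 (median −0.20; 1 and 2 without the 5 libraries). Their summed level was 1109 to 1184 CPM in vehicle and 953 to 1123 CPM in fluoxetine libraries, so the groups overlapped in part. In bulk libraries fewer cells of a type and less RNA per cell cannot be told apart. Prox1, the transcription factor that keeps granule cell identity (chromosome 1, 190118035 to 190170714), had vehicle levels of 200.1 to 221 CPM (median 206) and fluoxetine levels of 159 to 195 CPM (median 177), a log2 change of −0.23 ± 0.05 (adjusted p = 0.0045). All fluoxetine libraries were lower, also for the change of −0.20 ± 0.06 without the 5 libraries (adjusted p = 0.0239). Calb1, the calcium buffer of mature granule cells, stood at 134 to 159.9 CPM in vehicle libraries (median 142) and at 67.7 to 136 CPM with fluoxetine (median 113), a log2 change of −0.46 ± 0.13 (adjusted p = 0.0177). It was at −0.21 ± 0.08 (adjusted p = 0.0928) without the 5 libraries. C1ql2, a synapse organiser that granule cells secrete, rose (0.57 ± 0.12). Tdo2, a tryptophan-degrading enzyme of mature granule cells, was at −0.77 ± 0.32 (adjusted p = 0.0781), and Dsp at −0.23 ± 0.19 (adjusted p = 0.371). Of 15 markers of immature granule cells and progenitors 1 rose, Dcx (0.39 ± 0.14), and 1 fell, Stmn1 (−0.36 ± 0.09), with 0 and 1 without the 5 libraries. Neither passed without the 5 libraries.

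Mossy cell markers summed to 1389.8 to 1595 CPM in vehicle and 1667 to 1844 CPM in fluoxetine libraries without overlap, and 6 of 14 rose (median 0.28; 5 without the 5 libraries). The list holds the AMPA receptor genes Gria2 (0.28 ± 0.05) and Gria3, and the receptor gene Ephb6 (0.59 ± 0.10), and other hippocampal neurons express these too. Gria2 alone had a vehicle median of 686 CPM in hippocampus libraries, a large part of the sum, and of 325 CPM in mossy cell libraries. The sum is thus not a measure of mossy cells. CA3 pyramidal markers gave 5 higher and 1 lower of 10 (2 and 0 without the 5 libraries), with the kainate receptor Grik4 at 0.58 ± 0.11. CA1 and CA2 markers gave 2 and 2 of 14 (2 and 1 without the 5), near the 15.5% higher and 14.7% lower of all genes. Their median was 0.13 and 9 of 14 had a positive change, while Pcp4, a calmodulin regulator, fell (−0.42 ± 0.08). Interneuron markers gave 5 and 3 of 16 (2 and 2 without the 5), with a median of 0.08 and a positive change in 9 of 16. Gad2, the enzyme that makes GABA at terminals (−0.28 ± 0.06), Gad1 (−0.16 ± 0.05) and Pvalb (−0.33 ± 0.07) fell, and Reln (0.47 ± 0.09) was among the 5 members that rose.

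Long noncoding RNAs and genes of nuclear proteins were mixed. Of 17 long noncoding RNAs 7 rose and 2 fell (median 0.05), and 8 rose and 0 fell without the 5 libraries. Malat1, a nuclear speckle RNA, ran from 8751 to 15569 CPM (median 13112) with vehicle and from 16155 to 24918 CPM (median 18860) with fluoxetine, a log2 change of 0.63 ± 0.12 (adjusted p = 0.00194). Miat, a nuclear noncoding RNA of neurons, was also above vehicle in all 7 fluoxetine libraries (0.98 ± 0.15). Peg13 (−0.19 ± 0.07) and Snhg1 (−0.27 ± 0.08), the latter a small nucleolar RNA host gene, fell and did not pass without the 5 libraries. Of 57 splicing factors and hnRNPs 7 rose and 13 fell (7 and 8 without the 5 libraries), with Srsf3 at −0.38 ± 0.07, Hnrnpa3 at −0.33 ± 0.05, Ddx17 at 0.32 ± 0.08 and Rbm5 at 0.31 ± 0.07. Of 50 histone and DNA modifying enzymes 5 rose and 7 fell (3 and 1 without the 5 libraries), with the DNA methyltransferase Dnmt3a at 0.38 ± 0.07, the DNA demethylase Tet2 at 0.46 ± 0.09 and the Polycomb protein Eed at −0.37 ± 0.10. Of 30 chromatin remodellers 5 rose and 2 fell (1 and 2 without the 5 libraries). For the modifying enzymes and the remodellers alike, the shares were near or below the 15.5% higher and 14.7% lower of all genes. With the length and GC correction the 5 remodellers that rose became 0 and their median went from 0.07 to −0.09.

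Of 26 microtubule and neurofilament genes 1 rose and 9 fell (median −0.11; 0 and 10 without the 5 libraries), with the alpha tubulins Tuba1b at −0.27 ± 0.06 and Tuba4a at −0.26 ± 0.06. Alpha tubulin genes are close copies, so shared reads make single values uncertain. Of 31 kinesin and dynein genes 7 rose and 12 fell (median −0.10; 3 and 6 without the 5 libraries). Dync1i2, an intermediate chain of dynein, was above vehicle in 6 of 7 fluoxetine libraries (0.55 ± 0.08), and its neuronal paralogue Dync1i1 was below it in all 7 (−0.28 ± 0.06).

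Markers of microglia and of astrocytes rose. Of 16 microglia markers 15 rose and 0 fell (median 1.39). Their sums did not overlap between the groups, and 11 markers still rose without the 5 libraries, with a median of 0.83. Tmem119, a membrane protein of resident microglia, had vehicle levels of 1.94 to 3.39 CPM (median 2.82) and fluoxetine levels of 4.06 to 19.5 CPM (median 6.81), a log2 change of 1.72 ± 0.29 (adjusted p = 0.00101). Of 16 astrocyte markers 11 rose and 0 fell (median 0.69; 10 rose without the 5 libraries, median 0.39). Their sums overlapped, at 2329 to 2919 CPM in vehicle and 2839 to 7874 CPM in fluoxetine libraries. The sodium pump subunit Atp1b2 changed by 0.55 ± 0.13, and by 0.40 ± 0.06 without the 5 libraries. Without vehicle libraries 1, 2 and 4 alone, 5 microglia and 0 astrocyte markers rose, with medians of 1.48 and 0.79. Of 20 interferon and inflammation genes 3 rose and 2 fell (2 and 2 without the 5 libraries), shares near or below the 15.5% higher and 14.7% lower of all genes. The antiviral genes Ifit1 (−1.17 ± 0.25) and Ifit3 (−0.60 ± 0.19) fell and the antigen presentation genes H2-D1 (0.50 ± 0.17) and B2m (0.39 ± 0.15) rose.

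Choroid plexus and ependymal markers fell in 7 of 9 tested genes (median −1.13), and without the 5 libraries 0 fell and 1 rose (median 0.07). Ttr, the thyroid hormone carrier that choroid plexus secretes, stood at 3.06 to 5579.8 CPM in vehicle libraries (median 766) and at 1.49 to 97.7 CPM with fluoxetine (median 21.7). With all libraries it changed by −5.74 ± 1.36 (adjusted p = 0.00587), and without the 5 it was at 1.93 ± 0.76 (adjusted p = 0.0932). The chloride channel gene Clic6 went from −4.80 ± 1.06 to 1.90 ± 0.59 and Enpp2, an enzyme of choroid plexus and oligodendrocytes, from −1.62 ± 0.48 to 0.40 ± 0.09, both called in each case. Of 17 oligodendrocyte markers 0 rose and 4 fell (median 0.02), and without the 5 libraries 6 rose and 0 fell. Oligodendrocyte markers summed to 2054, 2099 and 1805 CPM in vehicle libraries 1, 2 and 4 and to 1210 to 1312 CPM in the other vehicle libraries. Precursor markers gave 2 higher of 9 (2 without the 5 libraries), the receptor gene Gpr17 (0.48 ± 0.12) and C1ql1 (0.59 ± 0.20).

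The direction of calls varied with transcript length and GC content. Among the 15184 genes with both values, 7.7% of the shortest quintile were higher and 22.5% lower, while in the longest quintile 24.8% were higher and 9.68% lower. In the quintile with the lowest GC content 11.8% were higher and 21.5% lower, and in the highest quintile 19.5% and 6.78%. Median transcript length was 971 bases in the complex I list, 1581 in the proteasome and 914 in the cytosolic ribosome, against 7926 in sodium and calcium channels, 6667 in synaptic adhesion and 6143 in scaffolds. After the correction for both, the sign of the median held in every list of energy metabolism, protein quality control, channels, glutamate and GABA receptors, adhesion, guidance, matrix and lysosome. The counts there were 15 higher of 29 sodium and calcium channel genes, 9 of 48 potassium channel genes, 20 of 39 adhesion genes, and 26 lower of 31 proteasome genes and 20 of 37 complex I genes. Over all genes 10.9% were higher and 19.4% lower with the correction, against 15.5% and 14.7% without it, so lower calls were more frequent in general. Lower members there were 13 of 30 in the active zone list, 15 of 31 kinesins and dyneins and 14 of 26 microtubule and neurofilament genes. They were 14 of 50 histone and DNA modifying enzymes and 7 of 28 activity-regulated genes. Higher members were 10 of 33 cadherins and protocadherins, 2 of 7 metabotropic glutamate receptors, 1 of 30 in the active zone list and 1 of 31 kinesins and dyneins.

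**Figure D5:**
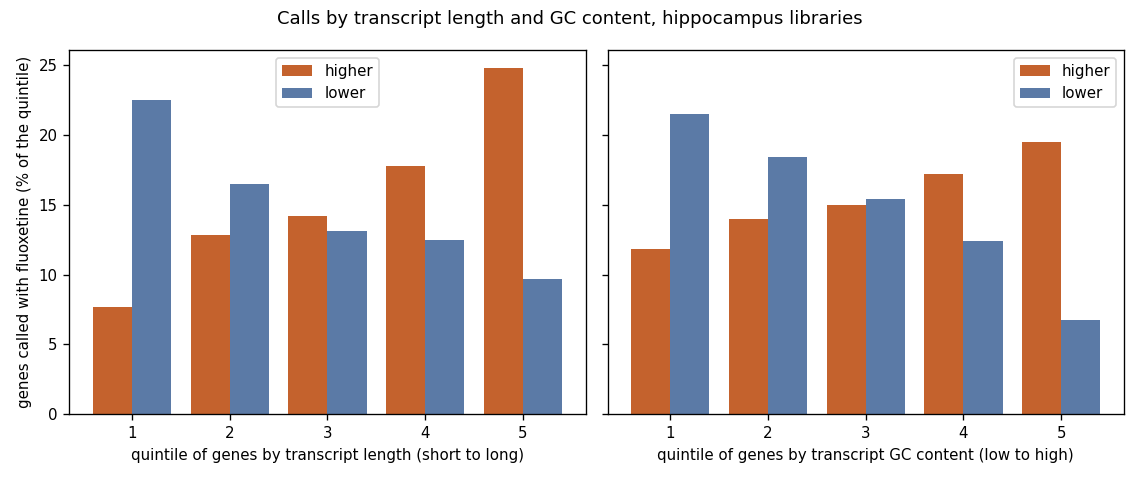
Share of genes called higher or lower with fluoxetine (y axis, % of each quintile) by quintiles of transcript length (left) and GC content (right) over 15184 genes. The share higher runs from 7.7% in the shortest to 24.8% in the longest quintile, and the share lower from 22.5% to 9.68%.

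The fluoxetine effect in the hippocampus libraries was set against that in mossy cell libraries, with 6 vehicle and 7 fluoxetine libraries from wild-type mice as well. In mossy cells 8.05% of 14229 genes were higher and 1.26% lower. The difference between the effects, tested as an interaction over 26 libraries with no term for the replicate number, passed for 7 of 15922 genes (0.044%). At an unadjusted p under 0.05 it was 1789 genes (11.2%). Without the 5 libraries edgeR called 0 genes, with 1457 (8.94%) at an unadjusted p under 0.05, and the count ran from 2 to 41 with 1 library left out. DESeq2, run over all 26 libraries, called 109. Nvl, a nuclear ATPase of ribosome assembly, ran from 18.6 to 22.6 CPM (median 20.2) with vehicle and from 24.8 to 33.6 CPM (median 30.7) with fluoxetine in hippocampus. It rose by 0.57 ± 0.08 there and was at −0.28 ± 0.12 in mossy cells, a difference of −0.83 ± 0.13 (adjusted p = 0.00714). Srek1, a splicing regulator, was at 0.38 ± 0.07 in hippocampus and −0.44 ± 0.11 in mossy cells, a difference of −0.80 ± 0.13 (adjusted p = 0.00714). The gene D4Wsu53e was at 0.61 ± 0.08 and −0.20 ± 0.11, a difference of −0.78 ± 0.14 (adjusted p = 0.0264). Ly6e, a surface protein anchored by a lipid, went the other way, with 0.24 ± 0.07 in hippocampus and 0.84 ± 0.10 in mossy cells (difference 0.62 ± 0.12, adjusted p = 0.0464).

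Values in mossy cells are given for lists described above, and they were mixed. Synaptic adhesion genes gave 25 of 39 higher there (median 0.44), guidance genes 24 of 48 (median 0.53) and lysosomal genes 13 of 22 (median 0.52). Sodium and calcium channel genes gave 14 of 29 (median 0.38) and potassium channel genes 9 of 48 (median 0.30). Granin and peptide-processing genes gave 13 of 19 higher (median 0.50) and ionotropic glutamate receptors 8 of 17 (median 0.40). Microglia markers gave 6 of 13 (median 2.15) and ER chaperones 7 of 19 (median 0.46, against 0.15 in hippocampus). Of other lists with rises in hippocampus, collagens, laminins and integrins gave 4 of 32 (median 0.53), astrocyte markers 3 of 16 (median 0.70), adenylyl cyclases and phosphodiesterases 3 of 24 (median 0.14), spectrins and ankyrins 0 of 15 (median 0.07) and long noncoding RNAs 1 of 16 (median −0.06). Of the lists that fell, complex I gave 0 lower of 37 (median −0.04), the proteasome 0 of 31 (median −0.17) and translation factors 1 of 51 (median −0.11). Fewer genes passed in the lower direction in mossy cells as a whole, and whether these lists differ between the sources was not tested. Miat was at −0.06 ± 0.21 in mossy cells, with a difference of −1.02 ± 0.25 (adjusted p = 0.108) that did not pass.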

How the data were processed

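RNA was sequenced from 13 hippocampus libraries of wild-type mice, 6 given vehicle and 7 given fluoxetine, and for 1 comparison from 13 mossy cell libraries. Per the labels' protocols, RNA came from TRAP, cDNA was amplified from 500 pg of RNA and libraries were read as 50-base pairs. The submitters' processing notes name the GRCm38 build and the tools STAR 2.5.2b, HTSeq 0.7.2 and edgeR. The annotation, the strand setting and the treatment of reads with several alignments are not given in the sources used here. The deposited values are raw read counts per gene symbol. Amplified cDNA holds PCR copies, so counts are not independent molecules. Total counts were 23.9 to 45.0 M per library, which sets the precision of low genes.

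The counts were fitted with R 4.3.3 and edgeR 4.0.16 (filterByExpr, TMM factors, two-sided quasi-likelihood test, Benjamini-Hochberg over all genes tested, threshold 0.05). CPM uses the scaled library sizes. The interaction was fitted with 4 group means over 26 libraries. Positions are those of GENCODE M21 on GRCm38, with 22753 of 24485 symbols matched directly and 920 through a synonym. The code was tested on simulated data.

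Genes were named by rule. The first part of the rule ranked called genes by the size of the change and kept 12 per direction. They had to have a mean log2 CPM of 3 or more, groups without overlap, a sign that no left-out library turned, and a symbol other than that of a clone or a predicted gene. Further parts gave the 3 smallest p per list and direction, a set named always, and the leading interaction genes. Not every gene taken is described, and some withheld items are not reported here. The members, the 56 lists and the tests were chosen with earlier results of these data known. Alternatives were DESeq2 1.42.0 and its size factors, upper quartile scaling, other filters, limma-voom 3.58.1, a surrogate variable (sva 3.50.0), the replicate block, a loess correction for length and GC content (span 0.3), removal of Rn45s and Lars2, each library left out, and, added after seeing the data, sets of libraries left out.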

Additional observations from a re-analysis of the deposited data

Results flagged for a closer look

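In several genes 1 hippocampus library stood far from the rest of its group by Dixon's test, which flags about 1 in 20 groups by chance. Fluoxetine library 4 was the highest fluoxetine library for glial genes: Csf1r at 50.4 CPM (next highest 14.9), C1qb at 56.4 CPM, P2ry12 at 29.9 CPM, Laptm5 at 38.9 CPM, Pla2g7 at 56.0 CPM, Mlc1 at 75.2 CPM, Gpr37l1 at 128 CPM and Atp1b2 at 413 CPM. It was also highest for Ntrk2 at 461 CPM, B2m at 95.1 CPM, Ctsf at 25.8 CPM, Enpp2 at 113 CPM and Pcsk1n at 159.6 CPM. It was the lowest for Cct4 at 61.8 CPM, Cycs at 193 CPM and Srsf3 at 171 CPM. Its summed markers stood out at 7874 CPM for astrocytes, 475 CPM for microglia and 167 CPM for oligodendrocyte precursors.

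Fluoxetine library 2 was the highest for the peptide genes Penk at 76.1 CPM, Npy at 109 CPM and Vgf at 61.9 CPM, and for Bdnf at 72.5 CPM, Gad2 at 298 CPM and Htr2b at 2.27 CPM. It was the lowest for Cadps2 at 67.9 CPM and Prps2 at 25.4 CPM. Fluoxetine library 3 was the highest for Dcx at 85.1 CPM and Clic6 at 2.67 CPM. Fluoxetine library 7 was the highest for Cck at 639 CPM and Mrps6 at 22.5 CPM and the lowest for Rbm5 at 96.9 CPM. Among vehicle libraries, library 1 was the highest for Ntrk2 at 177 CPM, library 2 the highest for Thyn1 at 49.4 CPM and the lowest for Pcsk1n at 79.2 CPM, and library 5 the highest for Nsf at 1225 CPM and the lowest for summed microglia markers at 57.4 CPM. Npy and Bdnf did not pass with all libraries. Penk and Vgf passed with all libraries and did not pass without vehicle libraries 1, 2 and 4 and fluoxetine libraries 2 and 4.

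The fluoxetine effect differed between mossy cells and hippocampus in 4 named genes, by the interaction test of edgeR. The mossy cell effect minus the hippocampus effect was −0.83 for Nvl, −0.80 for Srek1, −0.78 for D4Wsu53e and 0.62 for Ly6e on the log2 scale.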

How the results depend on the processing

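The count of 4705 genes called in hippocampus stayed between 3447 and 5046 when each library was left out in turn (1784 to 2544 higher, 1623 to 2502 lower). It was within 1.5 times the reported count under the other scalings, filters, tests and corrections. Leaving out vehicle libraries 1, 2 and 4 gave 1031 calls (632 higher, 399 lower), and leaving out those 3 and fluoxetine libraries 2 and 4 gave 2240 (1260 higher, 980 lower). Both settings hold fewer libraries, and the cause of the difference between them was not tested. Without vehicle libraries 1, 2 and 4 alone, 7 of 31 proteasome and 5 of 37 complex I genes were lower (medians −0.24 and −0.19). In that setting 10 of 29 sodium and calcium channel genes and 11 of 39 synaptic adhesion genes were higher (medians 0.24 and 0.29). The replicate number as a block gave 4802 calls in hippocampus. Same-numbered hippocampus libraries deviated together with r of −0.044 to 0.085, so the numbers do not pair them, and not every library correlated best with its own number. Between the sources, same-numbered hippocampus and mossy cell libraries of 1 treatment had r of 0.061 to 0.334, above 0.1 in 7 of 13, and 11 of 13 hippocampus libraries correlated best with their own number. Some of these libraries thus varied together, the labels do not say whether they share an animal, and the interaction as reported takes no account of it.

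The interaction of mossy cells and hippocampus rested on few genes and moved with most choices. Against 7 calls, it gave 23 with DESeq2 size factors, 33 with upper quartile scaling, 23 with a mean CPM of at least 5, 17 with limma-voom, 109 with DESeq2, 116 with the replicate block and 0 without the 5 libraries that stood apart. With 1 library left out it gave 2 to 41. It gave 2 without hippocampus fluoxetine library 1, 3, 5 or 6 or hippocampus vehicle library 1, 2, 3 or 5, 3 without vehicle library 6, 12 without vehicle library 4, 25 without fluoxetine library 4 and 30 without fluoxetine library 7. In mossy cells it gave 41, 15 and 19 without fluoxetine libraries 1, 3 and 4, 20 without vehicle library 2, 3 without vehicle library 3 or 4, and 4 without vehicle library 5 or 6. The cause was not tested.

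Signs turned in a few results. Without vehicle libraries 1, 2 and 4 the log2 changes were 2.21 for Ttr, 1.83 for Clic6 and 0.58 for Enpp2, and without all 5 they were 1.93, 1.90 and 0.40. The median of choroid plexus markers turned to 0.057 and 0.073 and that of the p11 list to 0.078 and 0.047. With the length and GC correction, medians turned to −0.094 for chromatin remodellers, −0.095 for histone and DNA modifying enzymes, −0.022 for postsynaptic scaffolds, −0.062 for spectrins and ankyrins and −0.099 for oligodendrocyte markers. Without the 5 libraries they turned to −0.013 for histone and DNA modifying enzymes and −0.005 for scaffolds. Without fluoxetine libraries 2 and 4 they turned to −0.013 for endothelial, −0.012 for immature granule and −0.10 for oligodendrocyte markers, whose median was −0.006 with limma-voom. The interferon median, near 0, turned to 0.003 with DESeq2, 0.004 with its size factors and with upper quartile scaling, 0.014 without Rn45s and Lars2, 0.22 with a mean CPM of at least 5 and 0.009 with the block. With 1 library left out, medians ranged from −0.044 to 0.053 for the interferon list, from −0.045 to 0.087 for oligodendrocyte markers and from −0.006 to 0.058 for histone and DNA modifying enzymes. Marker lists hold genes that several cell types express, and low genes such as Htr2b rest on few counts.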
